A study of Mus musculus with 7 samples.

Results

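The genes described here encode the MHC class II chains and the proteins that load them with peptide, as measured in the end of the small bowel (terminal ileum). The members were 10 listed genes: Ciita, H2-Aa, H2-Ab1, H2-Eb1, Cd74, H2-DMa, H2-DMb1, H2-DMb2, H2-Oa and H2-Ob. Every probe set whose platform annotation named 1 of them alone, or H2-DMb1 and H2-DMb2 together, was taken. That gave 21 of 45037 probe sets, for 10 of 18194 genes with a probe set of their own or, for H2-DMb1, a shared one. The genes were chosen by the difference between penicillin and control in these same arrays, so their group differences are a description. No p-value is given for the group difference of a member, and counts of members past a threshold are listed without reading anything from them. The p-values printed for members belong to their correlations with Ciita within the groups. RNA came from male C57BL6J mice aged 8 weeks. The control group was 3 mice that never had antibiotic. The penicillin group was 4 mice given penicillin at a low dose, 6.7 mg/L, starting at birth. Both groups went onto chow at weaning (4 weeks) and from 6 weeks onto a high-fat diet, in which fat gives 45% of the calories. The labels call the arrays biological replicates and give no litter or cage, so a litter or cage difference cannot be told apart from penicillin. The growth text names liver, while the tissue label is terminal ileum.

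MHC class II molecules are pairs of an alpha and a beta chain that show fragments of taken-up protein to CD4+ T cells. B cells, dendritic cells and macrophages carry them all the time, and the absorptive epithelium of the small intestine carries them as well, more so under interferon gamma. Newly made pairs are held by the invariant chain, Cd74. Its remnant in the groove is exchanged for peptide with the help of H2-M, made of H2-DMa and an H2-DMb chain, and H2-O, made of H2-Oa and H2-Ob, restrains H2-M. Ciita is the coactivator that switches the family on, through the RFX, CREB and NF-Y factors bound at the X and Y boxes of their promoters. C57BL6 mice carry a defect in the alpha chain gene of the I-E pair, so the I-A pair of H2-Aa and H2-Ab1 is the class II molecule on their cells, although H2-Eb1 is transcribed.

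The deposited values are log2 values per probe set, between 2.50 and 14.7, with array medians of 5.43 to 5.45. Each log2 step is a doubling. The method gives no detection call. Levels of different probe sets cannot be compared, since probes differ in how well they bind. The ileal label fitted the markers: Krt8, an epithelial keratin, was at 14.43 or more on all 7 arrays, and Fabp6, which binds bile acids in ileal cells, at 14.28 or more. The other strongest ileal genes, the bile acid exporters Slc51a and Slc51b, differed by 0.21 ± 0.19 and 0.04 ± 0.22 (SE) between the groups. Slc10a2 and Fgf15, of the same list, differed more and in opposite directions, by 0.82 ± 0.22 and -1.14 ± 0.55 (SE). Of the 6 ileal and 4 colon genes tested, 0 passed in limma, with 1 ileal and 0 colon genes at an unadjusted p under 0.05. Control replicate 3 stood apart, at -39.7 on the first principal component against -4.72 to 23.8 for the other arrays. Its mean over the ileal list was 11.06, against 11.7 to 12.1 on the other arrays. Car1, a carbonic anhydrase of colon cells, was at 14.10 there and at 5.11 to 10.82 elsewhere. Aqp8, a colon water channel, was at 8.27 there and at 3.86 to 4.29 elsewhere. Car4, a further colon carbonic anhydrase, was at 11.53 there and at 10.94 to 11.90 elsewhere. Differences are therefore also given without that array.

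Ciita, the switch of the family, read lower in penicillin mice on its probe sets, which lay in the middle and lower part of the scale, where these values do not separate expression from background. On the probe set with the highest level (1421210_at) the control mice read 6.06, 5.92 and 5.60, and the penicillin mice read 5.12, 5.59, 5.14 and 5.19. The groups met without overlapping: the lowest control array, control replicate 3, lay 0.014 above penicillin replicate 2. The group means were 5.86 ± 0.23 (SD, n = 3) and 5.26 ± 0.22 (SD, n = 4), a difference of -0.60 ± 0.15 (SE), or 1.52-fold. Without control replicate 3 it was -0.73. On the second probe set (1421211_a_at) the control mice read 5.51, 5.47 and 4.97 and the penicillin mice 4.45, 4.69, 4.38 and 4.44. There the difference was -0.83 ± 0.14 (SE), and penicillin replicate 2 was again the highest of its group. The third (1447075_at) had a mean of 3.98, just past the filter on low values (3.976). It passed through the control group, with means of 4.27 in control mice and 3.76 in penicillin mice, a difference of -0.51 ± 0.11 (SE). None of the 3 probe sets passed the test across all probe sets.

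**Figure D1:**
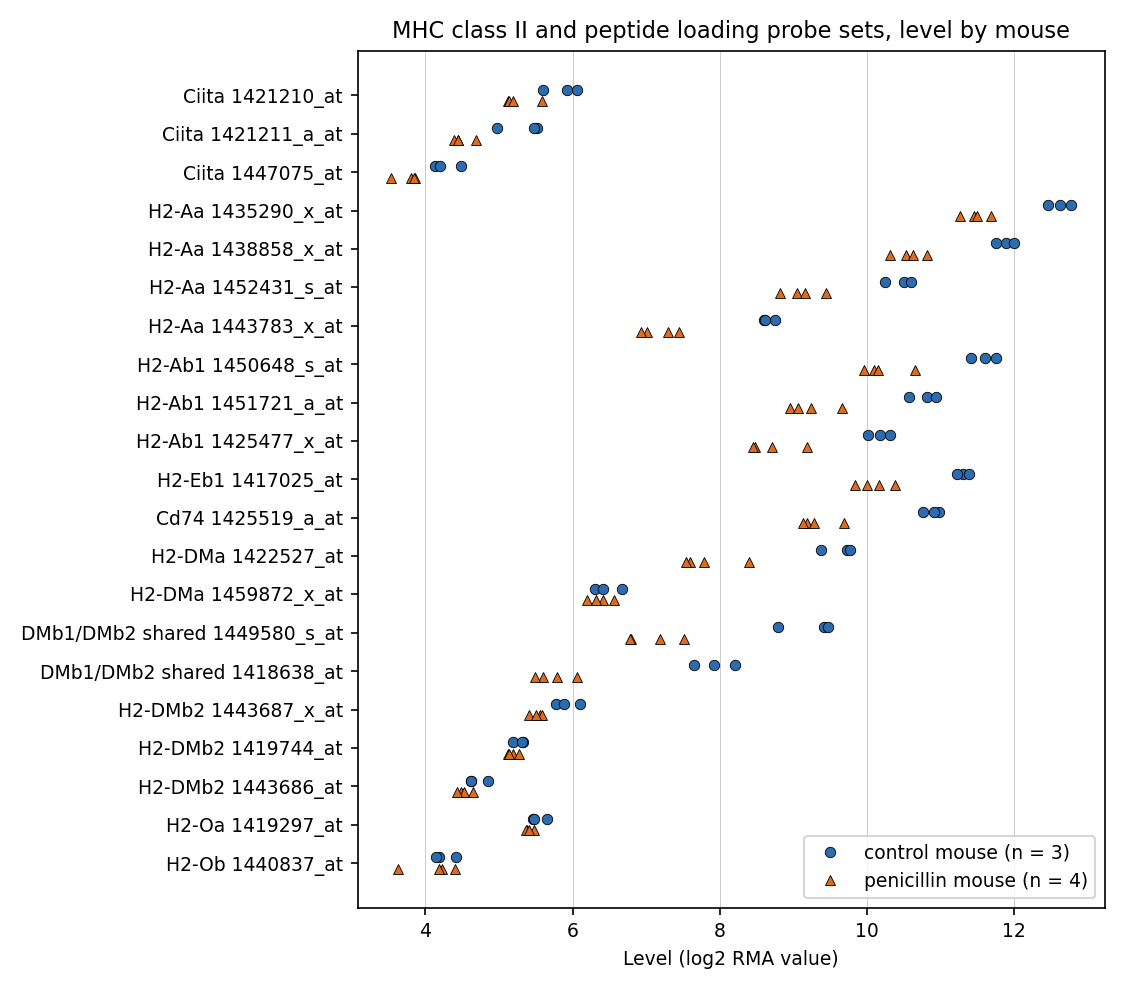
Level of each of the 21 probe sets in each mouse, as log2 values; circles are the 3 control mice and triangles the 4 penicillin mice. The groups stand apart, by 0.76 or more, for the probe sets of H2-Aa, H2-Ab1, H2-Eb1 and Cd74, for 1422527_at of H2-DMa and for the shared H2-DMb1 and H2-DMb2 sets, and overlap for H2-Oa and H2-Ob.

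The promoter letters below are shown for matches to the X and Y box cores, in members that were lower together and in members that were not. Entries of RefSeq's promoter table (GRCm38.p6) were used for 7 of the member genes. The table held no entry for H2-Ab1 or Ciita. Cd74, a called member outside the stretch of chromosome 17 described below, was left out of the search. H2-Ab1, Cd74 and Ciita are therefore named only. The 250 bases before each gene start were searched on both strands for an X box core (G, any 2 letters, AC, any 2 letters, ATG), for a Y box core (ATTGG) and for an X core followed on the same strand by a Y core after 5 to 40 bases. The cores share no letters in a pair, since the gap lies between them. Of 32851 promoters of that length 7.59% held the X core, 33.85% the Y core and 0.262% the pair. Among the 7 genes the pair was found in 3, H2-Eb1, H2-DMb1 and H2-Ob, with gaps of 22, 23 and 20 bases. In the windows that follow, which hold 80 bases and end 36 bases before the gene start, capitals mark X and Y cores.

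H2-Eb1, chr17:34305752-34305831, plus strand: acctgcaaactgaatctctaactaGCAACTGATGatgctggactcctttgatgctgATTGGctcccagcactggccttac

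H2-Aa, chr17:34287859-34287938, minus strand: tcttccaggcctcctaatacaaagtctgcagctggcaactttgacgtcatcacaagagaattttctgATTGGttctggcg

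H2-Ob, chr17:34238790-34238869, plus strand: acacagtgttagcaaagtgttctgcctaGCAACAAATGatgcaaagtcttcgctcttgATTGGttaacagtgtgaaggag

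H2-Oa, chr17:34092264-34092343, plus strand: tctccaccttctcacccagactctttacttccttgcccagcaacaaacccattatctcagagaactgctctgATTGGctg

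A Y core stood 59 bases before the start of H2-Eb1, 48 before H2-Aa, 57 before H2-Ob and 43 before H2-Oa. H2-Aa, whose 4 probe sets were all lower, did not hold the X core as searched. H2-Oa held an X core 140 bases before its start, outside the window printed and too far from the Y core to count as a pair. H2-Ob held the pair, and its groups overlapped at a level where expression and background cannot be told apart. The part of these matches in the group differences was not tested. A match is a run of letters and not a measured binding site.

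The I-A pair was lower in every penicillin mouse. H2-Aa, its alpha chain, was measured by 4 probe sets. On the strongest (1435290_x_at) the control mice read 12.62, 12.77 and 12.46 and the penicillin mice 11.46, 11.69, 11.26 and 11.49. The lowest control mouse was 0.76 above the highest penicillin mouse, and the difference was -1.14 ± 0.11 (SE), or 2.21-fold. The other 3 sets had differences of -1.31 ± 0.12, -1.34 ± 0.15 and -1.49 ± 0.13 (SE). On 1443783_x_at, the set with the difference of -1.49, the control mice read 8.76, 8.61 and 8.62 and the penicillin mice 7.01, 7.44, 6.93 and 7.30.

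H2-Ab1, the beta chain of the I-A pair, had 3 probe sets with differences of -1.37 ± 0.16, -1.55 ± 0.17 and -1.46 ± 0.17 (SE). On the strongest (1450648_s_at) the control mice read 11.60, 11.75 and 11.42 and the penicillin mice 10.10, 10.66, 9.97 and 10.15. Penicillin replicate 2 was 0.59 above the mean of the other penicillin mice, and still 0.76 below the lowest control mouse. H2-Eb1, the I-E beta chain, had 1 probe set. Its control mice read 11.30, 11.39 and 11.23 and its penicillin mice 9.998, 10.38, 9.84 and 10.17. That is a difference of -1.21 ± 0.12 (SE), or 2.32-fold, and its control mice had an SD of only 0.082 against 0.23 in the penicillin group. Cd74, the invariant chain, also had 1 probe set. Its control mice read 10.98, 10.91 and 10.76, and its penicillin mice read 9.19, 9.69, 9.12 and 9.28. The groups were 1.07 apart at their nearest, and the difference was -1.56 ± 0.13 (SE).

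The H2-M genes held both the largest and some of the smallest differences. The probe set of H2-DMa, the alpha chain, with the higher level (1422527_at) read 9.73, 9.78 and 9.38 in control mice and 7.59, 8.39, 7.54 and 7.78 in penicillin mice. Its difference was -1.80 ± 0.21 (SE), or 3.48-fold. The other H2-DMa set (1459872_x_at) read between 6.31 and 6.67 in control mice and between 6.19 and 6.56 in penicillin mice, where the groups overlap. It differed by -0.092 ± 0.11 (SE), so the 2 sets of this gene disagreed. No sequence of their probes was used here.

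H2-DMb1 and H2-DMb2 are neighbouring copies of the beta chain gene, and 2 probe sets are annotated to both. On 1449580_s_at the control mice read 9.42, 9.47 and 8.79 and the penicillin mice 6.79, 7.52, 6.78 and 7.19. On 1418638_at the control mice read 8.20, 7.93 and 7.65 and the penicillin mice 5.59, 6.06, 5.49 and 5.78. These were the widest gaps of all members, 1.28 and 1.59 between the nearest mice. The differences were -2.16 ± 0.22 and -2.19 ± 0.16 (SE), or 4.46-fold and 4.58-fold, ranks 8 and 7 among the falls of 33777 probe sets. Without control replicate 3, the lowest control mouse in both, they were -2.37 and -2.33.

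The 3 sets annotated to H2-DMb2 alone did not show this. 1443687_x_at read 6.11, 5.77 and 5.88 in control mice and 5.56, 5.59, 5.41 and 5.51 in penicillin mice, a difference of -0.40 ± 0.088 (SE) with no overlap. 1443686_at and 1419744_at differed by -0.18 ± 0.082 and -0.096 ± 0.063 (SE), and their groups overlapped. All 3 lay low, with means of 4.60 to 5.69. No probe set was annotated to H2-DMb1 alone, so the signal of the shared sets cannot be divided between the copies.

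The promoters of the copies are alike, and they are set side by side because they differ inside the X core. Aligned on the Y core, 61 of 70 bases were the same (87.1%). Positions are counted from 1 at the left end, with H2-DMb1 as the reference.

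H2-DMb1, chr17:34153080-34153149, plus strand: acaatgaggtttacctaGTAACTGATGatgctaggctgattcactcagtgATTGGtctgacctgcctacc

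H2-DMb2, chr17:34145109-34145178, plus strand: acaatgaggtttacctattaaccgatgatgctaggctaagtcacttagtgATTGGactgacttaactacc

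The X core of H2-DMb1 begins at position 18 and the Y core at position 51. Of the 9 substitutions 2, G18T and T23C, fall in the X core, and G18T removes a letter that the search asked for. For H2-DMa the table gave 2 gene starts, and neither held the X core.

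H2-Oa and H2-Ob, which restrain H2-M and are known mainly from B cells, overlapped between the groups. H2-Oa read 5.46, 5.48 and 5.65 in control mice and 5.39, 5.48, 5.36 and 5.41 in penicillin mice, a difference of -0.12 ± 0.066 (SE), or -0.064 without control replicate 3. H2-Ob read 4.19, 4.15 and 4.42 in control mice and 4.23, 4.19, 3.63 and 4.41 in penicillin mice, a difference of -0.14 ± 0.17 (SE). Penicillin replicate 3 was the lowest there, and without it the difference was 0.024. A further probe set that names H2-Ob together with another gene was left out. As for Ciita, expression and background cannot be told apart at these levels.

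**Figure D2:**
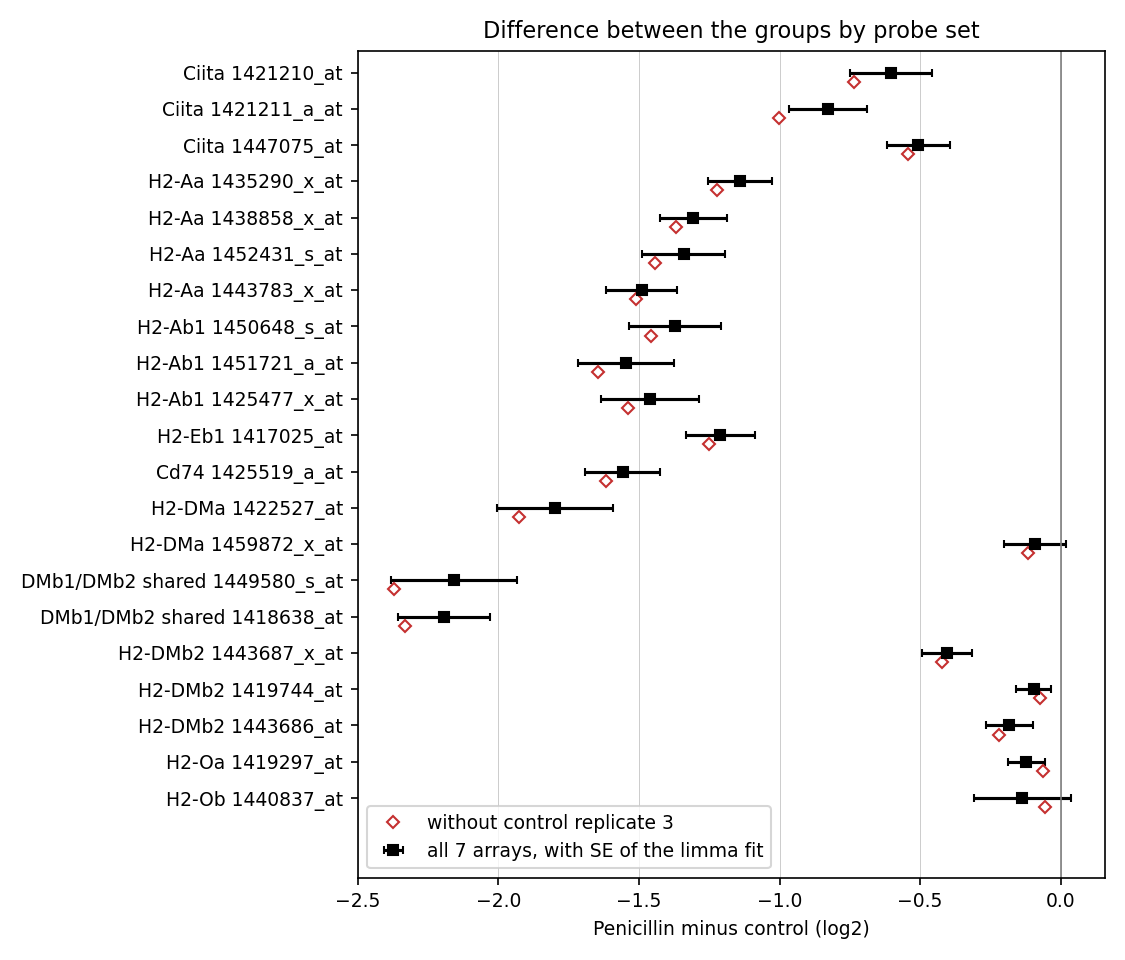
Penicillin minus control on the log2 scale for each probe set; squares with bars are the difference and its SE from limma with all 7 arrays, and open diamonds the difference without control replicate 3. The shared H2-DMb1 and H2-DMb2 sets lie at -2.16 and -2.19, the chains and Cd74 between -1.14 and -1.56, Ciita between -0.51 and -0.83, and the H2-DMb2, H2-Oa and H2-Ob sets between -0.40 and -0.096.

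Across the table limma called 20 probe sets lower in penicillin mice (0.0592%) and 1 higher (0.00296%) at a Benjamini-Hochberg adjusted p under 0.05. All 21 members passed the filter on low values, and 12 of them were among the 20. The 12 were all sets of H2-Aa, H2-Ab1, H2-Eb1 and Cd74, 1422527_at of H2-DMa and both shared H2-DMb1 and H2-DMb2 sets. Their differences ranged from -1.14 to -2.19, and the median over all 21 members was -1.21 against -0.0023 over all probe sets tested. The groups did not overlap in 16 of the 21 members, all lower (background 4.49%). Since the same contrast had brought the members forward, nothing is read from these counts, this median or their backgrounds. The count of called members depended on single arrays. In limma it fell to 0 on leaving out either control replicate 1 or control replicate 2 (15 members at an unadjusted p under 0.05 each time). It was also 0 on leaving out penicillin replicate 1, and on leaving out penicillin replicate 4 (16 each). It was 3 without penicillin replicate 3, 6 without control replicate 3 and 12 without penicillin replicate 2. The sizes moved little: over the 7 fits that leave out 1 array, every difference of the 12 sets lay between -2.37 and -1.06.

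Within the groups the 12 called sets also went up and down together from mouse to mouse. Penicillin replicate 2 was the highest penicillin mouse in all 12 called sets, by 0.29 to 0.75 over the mean of the others. Over all probe sets tested it was the highest in 20.9%. Penicillin replicate 3 was the lowest of the group in 11 of the 12. That count has no share over all probe sets beside it, so nothing is read from it. Control replicate 3 was the lowest control mouse in 11 of the 12 (33.6% of all probe sets tested). Taking each array as its deviation from the mean of its group, the 66 pairs among the 12 sets had Pearson correlations between 0.70 and 0.99, with a median of 0.90 over 7 arrays. The members that were not called, Ciita aside, had r between -0.43 and 0.72 with the called sets, with a median of 0.26. Sets of 1 gene share its RNA, and all sets share the arrays, so these pairs are not independent of each other. The split into called and not called comes from the contrast that brought the members forward. It also follows level, with means of 4.17 to 6.41 in the sets not called, Ciita aside, and 6.67 to 11.97 in the called sets. No such r over all probe sets is given beside these medians, so nothing is read from the difference between them.

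Ciita shared part of this order. Most called sets were highest in control replicate 2 (9 of 12) and lowest in penicillin replicate 3, counts given without a share over all probe sets. The strongest Ciita set was highest in control replicate 1 and penicillin replicate 2 of their groups. It was lowest in control replicate 3 and penicillin replicate 1. Deviations of this set over the 7 arrays were compared with those of 9 others (the shared H2-DMb1 and H2-DMb2 set counting as 1), each by its strongest set, in an exact permutation test within groups, two-sided, whose smallest p is 0.00694. For Cd74 r was 0.92 (exact permutation p = 0.0139, adjusted p = 0.0833; Spearman's rho 0.86, p = 0.0208, adjusted p = 0.109). For H2-DMa r was 0.93 (exact permutation p = 0.0278, adjusted p = 0.0833; rho 0.86, p = 0.0486, adjusted p = 0.109). The shared H2-DMb1 and H2-DMb2 set had r of 0.92 (exact permutation p = 0.0278, adjusted p = 0.0833; rho 0.93, p = 0.0417, adjusted p = 0.109). H2-Eb1, H2-Ab1 and H2-Aa had r of 0.74, 0.86 and 0.78 and rho of 0.75, 0.86 and 0.79. Their exact permutation p was 0.0486, 0.0556 and 0.111 for r and 0.0764, 0.0486 and 0.0833 for rho. Adjusted, these were 0.10, 0.10 and 0.167 for r and 0.125, 0.109 and 0.125 for rho.

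The sets of H2-DMb2, H2-Oa and H2-Ob, none of them called, had r of 0.50, -0.19 and -0.043 and rho of 0.43, -0.36 and -0.32. Their exact permutation p was 0.299, 0.667 and 0.924 for r (adjusted p = 0.384, 0.75 and 0.924) and 0.431, 0.576 and 0.542 for rho (adjusted p = 0.554, 0.576 and 0.576). Of the 9 members 0 passed after adjustment, and 4 had an unadjusted p under 0.05 for r. Over 9 tests a single member at the smallest exact p, 0.00694, could not have passed, so nothing is read from the 0. With 1 array left out that count was 5 (control replicate 1 or 2), 1 (control replicate 3, penicillin replicate 1 or 3) or 0 (penicillin replicate 2 or 4), while the smallest exact p possible rose to 0.0208 or 0.0278. It was 6 with Ciita 1421211_a_at, 0 with 1447075_at and 5 with the mean of each member's probe sets. The r of H2-Oa rested on single arrays: it was 0.881 without control replicate 3 and -0.92 without penicillin replicate 2. Without control replicate 3 it was above that of H2-Aa (0.69), H2-Eb1 (0.79), the shared set (0.8625) and H2-Ab1 (0.876). It was below that of H2-DMa (0.946) and Cd74 (0.977) there. The r of the chains also leaned on 1 mouse. Without penicillin replicate 2 it was 0.58 for H2-Aa, 0.65 for H2-Ab1 and 0.39 for H2-Eb1, against 0.78, 0.86 and 0.74 with all arrays. For Cd74, H2-DMa and the shared set it was then 0.87, 0.86 and 0.86. Without penicillin replicate 2 and control replicate 1, the arrays farthest from the median of Ciita, r was 0.71 for Cd74, 0.87 for H2-DMa and 0.92 for the shared set. It was then 0.80, 0.81 and 0.56 for H2-Aa, H2-Ab1 and H2-Eb1, and -0.53, -0.78 and -0.20 for H2-DMb2, H2-Oa and H2-Ob. The positive r of H2-DMb2 therefore rested on those arrays. Correlations of Ciita with the members are given within groups and not pooled.

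The 3 Ciita sets did not behave alike. The deviations of 1421211_a_at followed those of 1421210_at with an r of 0.92, and their median r with the 12 called sets was 0.75. The third set, 1447075_at, had an r of 0.17 with 1421210_at and a median r of 0.27 with the called sets. These are descriptions over 7 arrays.

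**Figure D3:**
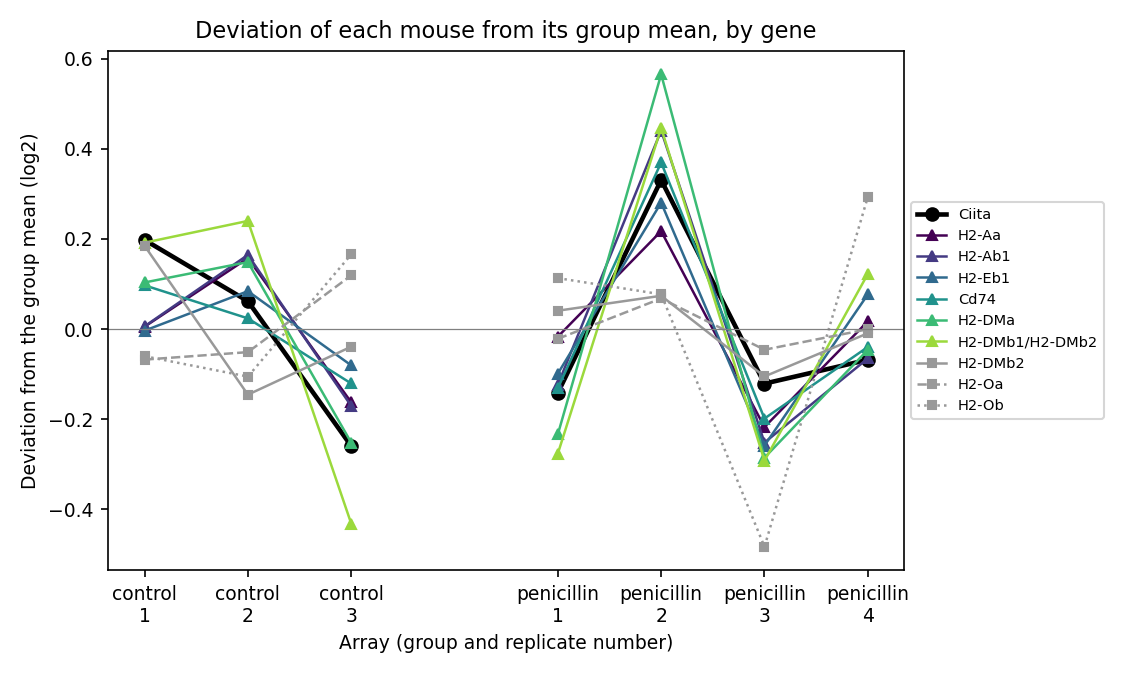
Deviation of each array from the mean of its own group, in log2 units, for Ciita (black), the 6 genes with a called set (colours) and H2-DMb2, H2-Oa and H2-Ob (grey); each gene is its strongest probe set, lines join the points of a gene, and replicate numbers have no order. Penicillin replicate 2 is the highest and control replicate 3 the lowest of its group for Ciita and each of the coloured genes.

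Outside the members, 15328 genes were ranked by the Pearson correlation of their level over the 7 arrays with the mean of Cd74, H2-Aa, H2-Ab1 and H2-Eb1. That mean was 11.6, 11.7 and 11.5 in control mice and 10.2, 10.6, 10.1 and 10.3 in penicillin mice. Because it holds the group difference, the ranking favours genes that differ between the groups. The 8 most alike were Cd7, a T cell and natural killer cell surface protein (0.995), Ccl5, a T cell chemokine (0.992), Cd177 (0.989), and Psmb9, an immunoproteasome subunit (0.989). They were followed by Gimap7, a lymphocyte GTPase (0.989), Ceacam10 (0.988), Tnfrsf13b, a receptor of B and plasma cells (0.983), and Lpxn, an adaptor of blood cells (0.982). Within groups, as deviations, their r with the class II mean ran from 0.79 for Ceacam10 to 0.96 for Cd7. Cd7 read 6.95, 6.94 and 6.88 in control mice and 6.10, 6.45, 6.07 and 6.19 in penicillin mice, with penicillin replicate 2 again the highest of its group.

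Other genes of the pathway were taken from a list chosen for their roles. It gave 26 measured genes, of which 25 passed the filter. In limma 0 of the 25 passed in either direction (background 0.0622%), and 2, Irf1 and Rfx5, both with lower values, had an unadjusted p under 0.05. The median difference of the 26 was -0.025. The subunits of the RFX complex, which binds the X box, were close in both groups. Rfx5 differed by -0.16 ± 0.065 (SE, limma adjusted p = 0.491), Rfxap by 0.08 ± 0.073 (SE, limma adjusted p = 0.703) and Rfxank by -0.091 ± 0.11 (SE, limma adjusted p = 0.773). Irf1, an interferon gamma induced factor that acts on a promoter of Ciita, read 10.99, 11.03 and 10.85 in control mice and 10.29, 10.71, 10.47 and 10.32 in penicillin mice. Its groups did not overlap, penicillin replicate 2 was the highest of its group, and the difference was -0.51 ± 0.11 (SE, limma adjusted p = 0.215). Ifngr1 and Ifngr2, the chains of the interferon gamma receptor, differed by 0.14 ± 0.065 and 0.21 ± 0.13 (SE, limma adjusted p = 0.528 and 0.596).

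Among the genes that prepare antigen, Ctss, the protease that trims the invariant chain, was at 12.54 ± 0.12 (SD, n = 3) in the control group and 12.62 ± 0.08 (SD, n = 4) with penicillin. Ifi30, the thiol reductase of the loading compartment, was at 11.01 ± 0.032 and 11.07 ± 0.033 (SD). Their differences were 0.08 ± 0.075 and 0.065 ± 0.051 (SE, limma adjusted p = 0.713 and 0.657). The costimulators Cd80 and Cd86 lay low, at 4.03 and 5.77 in control mice, and differed by -0.066 ± 0.074 and -0.077 ± 0.062 (SE, limma adjusted p = 0.761 and 0.670). Ifng itself lay under the filter, between 3.20 and 3.60 on all arrays.

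Class II genes are made by several cell types of the ileum, and in such a bulk sample fewer cells of a type and less RNA per cell cannot be told apart. B cell genes had a mean level of 4.61 to 4.66 in control mice and 4.37 to 4.55 in penicillin mice, over 9 of 10 markers, of which 6 had lower values. As for Ciita, expression and background cannot be told apart at these levels, and 7 of the 9 passed the filter. Cd79b, a chain of the B cell receptor, differed by -0.74 ± 0.19 (SE), while Cd22 and Pax5, a B cell surface lectin and the B cell lineage factor, differed by -0.06 ± 0.10 and 0.067 ± 0.11 (SE). Ms4a1, which encodes CD20, differed by -0.40 and lay between 3.93 and 4.74 on all arrays. The T cell list, with 9 of 10 markers, had a mean of 5.50 to 5.61 in control mice and 5.12 to 5.38 in penicillin mice, and all 9 had lower values. Its strongest markers, the CD3 chains Cd3d, Cd3e and Cd3g, differed by -0.59, -0.21 and -1.29. The macrophage and dendritic cell list, with 19 of 20 markers, of which 14 had lower values, had overlapping means of 7.18 to 7.41 and 6.996 to 7.21. Lyz2, Csf1r and Mertk, macrophage lysozyme and receptors, differed by -0.17, -0.34 and 0.08. Irf8, a factor of dendritic and B cells chosen after its value was seen, had the lowest difference of that list, at -0.64 ± 0.098 (SE). None of these markers passed in limma (0 of 7, 18 and 7 B cell, macrophage and T cell genes tested, with 2, 6 and 2 at an unadjusted p under 0.05).

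The epithelial list, with all 10 markers measured, of which 1 had a lower value, had means of 12.92 to 13.03 in control mice and 13.06 to 13.08 in penicillin mice. Its median difference was 0.082, or 0.037 without control replicate 3. In limma 0 of its 10 genes passed (0 at an unadjusted p under 0.05). Krt8, Lgals4 and Epcam, a keratin, a galectin and an adhesion protein of gut epithelium, differed by 0.043, 0.022 and 0.085. Control replicate 3 had the lowest epithelial mean and the highest macrophage and dendritic cell mean. The part of these cell type lists in the class II differences was not tested. The class II differences without control replicate 3 were 1.01 to 1.10 times as large as with it for the 12 called sets.

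**Figure D4:**
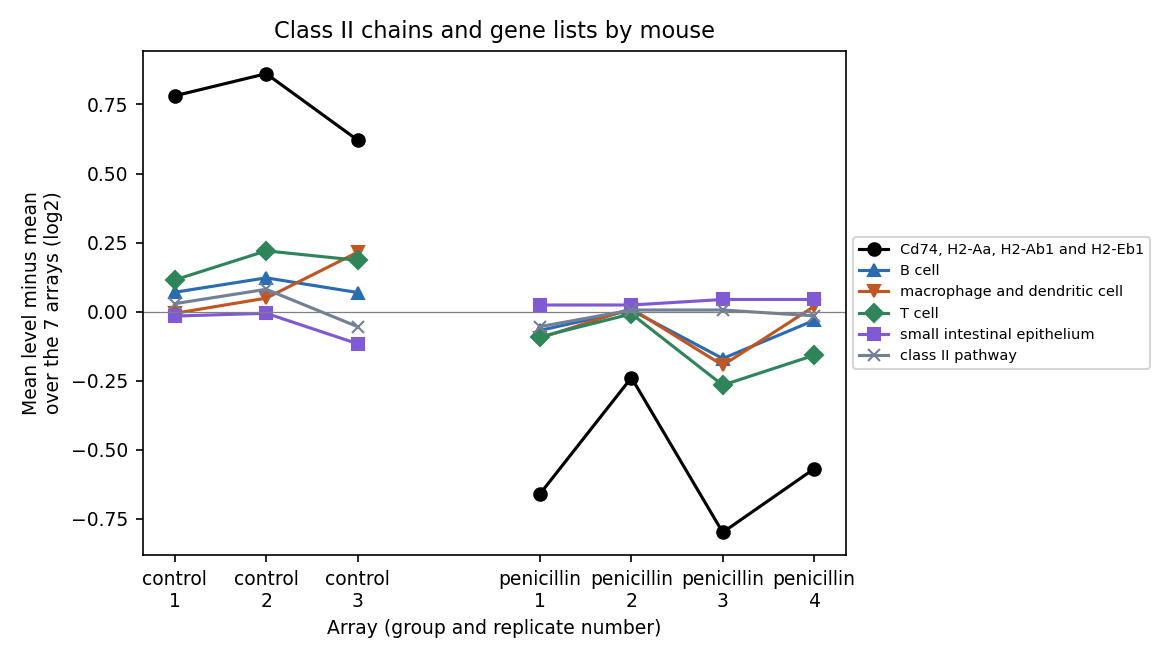
Mean level per array of Cd74, H2-Aa, H2-Ab1 and H2-Eb1 and of the gene lists, each minus its own mean over the 7 arrays (log2). The class II mean spans 10.1 to 11.7 before centring. The B and T cell lists lie lower in penicillin mice, the B cell list at levels where expression and background cannot be told apart. The epithelial list, which spans 12.92 to 13.08, lies higher.

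In gene order on chromosome 17 the members other than Ciita and Cd74 lie in 1 stretch of 13 protein-coding genes, from H2-Oa to H2-Eb1. H2-Oa was followed by Brd2, a bromodomain gene with a difference of -0.047, then by H2-DMa, H2-DMb2 and H2-DMb1. After these came Psmb9, Tap1, Psmb8 and Tap2, genes of class I peptide supply, with differences of -1.11, -1.02, -1.40 and -0.60. H2-Ob came next, and H2-Ab1, H2-Aa and H2-Eb1 closed the stretch. None of the 4 class I genes passed in limma (adjusted p = 0.0666, 0.205, 0.111 and 0.368).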

How the data were processed

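Total RNA of 7 ileum samples was hybridised to Affymetrix mouse arrays. The authors' deposited values are log2 levels per probe set; the submitters' processing notes name RMA and affy. For their versions and the array annotation's build, the sources used here give nothing. Promoter letters are on RefSeq's GRCm38.p6. Of 45101 probe sets 64 manufacturer's controls were left out, and 34945 others had 1 gene; 34741 of these matched RefSeq by gene ID. Probe sets with a mean above the 25th percentile (3.976) were tested, 33777 in all, with limma 3.58.1 (lmFit, eBayes, two-sided, penicillin minus control) in R 4.3.3, adjusted over all of them. A listed gene is its probe set with the highest mean. SEs are those of the fit. The scripts were tested on simulated data. Python 3.11.15 and matplotlib 3.10.9 made the figures.

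The members, lists, motifs and tests were chosen with earlier results of these data known. Named were all members, the called or else the 4 pathway genes with the largest moderated t, and 10 others whatever their values, the 3 strongest of each marker list, and the 8 genes most alike. Ms4a1, Irf8, Slc10a2, Fgf15 and the neighbours on the chromosome were added after their values were seen. Alternatives were other normalizations, filters, gene summaries, variance models, thresholds, a replicate block and left-out arrays. The number of arrays limits the precision.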

Additional observations from a re-analysis of the deposited data

Results flagged for a closer look

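In 30 probe sets, those of the members and of 9 pathway genes, the 4 penicillin arrays were searched for an array far from the others, which chance alone gives in about 1 of 20. Ciita on 1421210_at was at 5.59 in penicillin replicate 2, with the next array at 5.19. Ciita on 1447075_at was at 3.54 in penicillin replicate 1, with the next at 3.81. Ifng was at 3.20 in penicillin replicate 3; its other arrays were tied at 3.44, so any array that differed would have stood out, and the gene lay under the filter.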

How the results depend on the processing

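The count of probe sets lower in penicillin mice, 20 in the fit reported, was 13 with 1 probe set a gene, 9 with the mean of a gene's probe sets, 36 at an adjusted p under 0.1, and 1 to 30 with 1 array left out. The count of higher probe sets, 1 as reported, was 2 after quantile normalisation and 2 at the threshold of 0.1, 0 with the mean of probe sets, and 0 to 1 with 1 array left out. The count of members called lower, 12 as reported, was 6 genes with 1 probe set a gene, 5 genes with the mean of probe sets, and 0 to 12 with 1 array left out. With the replicate number as a block limma called 0 probe sets lower and 0 higher (1096 and 904 at an unadjusted p under 0.05) and 0 members (16). The labels do not say whether same-numbered samples belong together. Deviations of same-numbered arrays correlated at -0.10, -0.0069 and -0.37, which cannot decide it. With both control replicate 3 and penicillin replicate 3 left out it called 0 lower, 0 higher and 0 members (2092, 1321 and 15 at an unadjusted p under 0.05). Pathway genes called stayed at 0 in every fit run. Ciita's correlations passed for 0 of 9 members in each setting run, which shows no stability: with both of those arrays left out the smallest exact p possible was 0.0833. With the block, r was 0.83 for Cd74 and 0.43 for H2-Aa on 2 residual degrees of freedom and was not tested. The cause of these changes was not tested, apart from fewer samples or genes. Of 315 member differences under alternatives, 3, of H2-DMa 1459872_x_at and H2-Ob, were above 0.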
